A study of Mus musculus with 15 samples.

Results

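The genes described here are the transcription factor p53 (gene Trp53) and 8 of its well-known target genes, Mdm2, Ccng1, Sesn2, Zmat3, Phlda3, Trp53inp1, Btg2 and Gadd45a. Each was taken from the probe sets annotated with its symbol alone, and 8 of the 9 genes were measured in this way, each by 1 probe set, among 19296 genes in all. Trp53 itself was not analysed here. RNA came from sorted bone marrow cells of wild-type C57Bl/6 mice, all labelled male, and was hybridised to 15 Affymetrix arrays. There were 3 arrays of old haematopoietic stem cells (HSC), 5 of young HSC, 3 of old granulocyte/macrophage progenitors (GMP) and 4 of young GMP. Old mice were 22 to 30 months of age and young mice 6 to 12 weeks. HSC carried c-Kit, Sca1 and CD150 and lacked lineage markers, Flk2 and CD48. GMP carried c-Kit, the FcyR receptor and CD34 and lacked lineage markers and Sca1. Whether 1 mouse or a pool stands behind each array is not in the labels. The p-values therefore reflect spread among arrays alone, which may be technical.

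p53 is kept low in unstressed cells by the ubiquitin ligase Mdm2, itself a p53 target, and accumulates when DNA is damaged or replication stalls. It then binds short recognition motifs near its target genes and raises their transcription. The targets stop the cell cycle, repair DNA, adjust metabolism, restrain p53 itself or start cell death. In the blood system p53 is known for holding stem cells in quiescence and for removing damaged ones.

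The sequences just upstream of the transcription start are shown for 4 of the targets. Mdm2 and Ccng1 did not pass the test between the cell types below, and Btg2 and Gadd45a did. Each line holds the 250 bases before the start, from RefSeq on GRCm38.p6, with any match to the p53 decamer motif in capitals.
Mdm2 (chr10:117710759-117711008, minus strand): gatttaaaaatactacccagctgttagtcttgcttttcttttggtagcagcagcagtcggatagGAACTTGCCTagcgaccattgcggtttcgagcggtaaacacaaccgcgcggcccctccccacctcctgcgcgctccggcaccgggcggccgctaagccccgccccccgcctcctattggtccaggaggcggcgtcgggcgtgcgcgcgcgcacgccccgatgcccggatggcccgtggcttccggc
Ccng1 (chr11:40755287-40755536, minus strand): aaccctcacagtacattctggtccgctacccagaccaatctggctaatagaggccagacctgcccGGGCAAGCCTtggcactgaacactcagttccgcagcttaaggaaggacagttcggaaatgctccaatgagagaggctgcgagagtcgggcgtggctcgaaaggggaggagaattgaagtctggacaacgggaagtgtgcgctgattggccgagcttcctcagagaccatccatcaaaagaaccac
Gadd45a (chr6:67037408-67037657, minus strand): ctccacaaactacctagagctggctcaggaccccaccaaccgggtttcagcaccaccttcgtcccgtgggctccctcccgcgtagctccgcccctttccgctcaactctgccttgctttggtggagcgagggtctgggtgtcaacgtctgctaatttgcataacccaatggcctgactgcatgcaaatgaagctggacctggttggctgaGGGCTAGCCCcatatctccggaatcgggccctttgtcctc
Btg2 (chr1:134079156-134079405, minus strand): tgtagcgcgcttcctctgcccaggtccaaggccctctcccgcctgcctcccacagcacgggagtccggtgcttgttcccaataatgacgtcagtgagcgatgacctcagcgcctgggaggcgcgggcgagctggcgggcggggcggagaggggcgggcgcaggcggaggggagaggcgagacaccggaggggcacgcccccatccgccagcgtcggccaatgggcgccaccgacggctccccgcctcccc
The p53 decamer, the repeat unit of the p53 response element, was searched on both strands in windows of 300 bases, 250 before and 50 after the start. A match was present in 3 of the 6 target genes that had a window, as GAACTTGCCT in Mdm2, GGGCAAGCCT in Ccng1 and GGGCTAGCCC in Gadd45a. Its first base lay at -186, -185 and -40 from the start. Btg2, Phlda3 and Sesn2 held no match in this window. Over all 32851 windows of the same length 8.36% held a match. Zmat3 and Trp53inp1 were the other two measured targets.

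The HSC and GMP gene lists separated the arrays by their cell type labels, while Xist went against the sex label of some. A list of 8 HSC genes had a mean of 9.42 ± 0.26 log2 (SD over arrays) for old HSC and 9.46 ± 0.23 for young HSC, against 7.03 ± 0.04 for old GMP and 6.89 ± 0.11 for young GMP, and 8 of 8 were higher in HSC at each age. A list of 8 GMP genes was lower in HSC for 8 of 8 at each age. Xist, the RNA of the inactive X chromosome, was 5.46 to 5.84 log2 on the 6 old arrays and 4.72 to 11.51 on the 9 young arrays. Among the young, 7 arrays exceeded the highest old array by over 1 log2 unit, which goes against the male label. Only young HSC replicate 1 and young GMP replicate 1 were as low as the old arrays. The mean of 3 Y-linked genes did not set all 7 apart. It ran from 8.45 to 8.80 log2 on the old arrays. Among the 7, GMP replicate 3 stood at 8.28, and HSC replicates 3 and 5 at 8.47 and 8.42. Replicate 2 stood at 7.12 in HSC and 7.20 in GMP, and replicate 4 at 4.94 and 5.20. The 7 thus share a mismatch in Xist but not one Y-linked level. Age and this mismatch therefore overlap, and many results on the targets that rest on young arrays are also given without those 7. So are lost calls on other genes, singly or as counts. Other cell type lists also moved. A list of 7 macrophage genes stood at 7.16 log2 on young HSC replicate 4, against 6.33 to 6.50 on the other young HSC arrays and 7.24 to 7.45 in GMP. That array also had the lowest HSC list mean, 9.09. A list of 7 T and NK cell genes stood at 6.76 to 6.90 in old HSC and 6.51 to 6.68 in young HSC, without overlap, with 1 of the 7 called higher and 1 lower. Mature neutrophil genes, a list of 7, stood at 7.41, 8.36, 7.97 and 7.28 on young GMP replicates 1 to 4. On the old GMP arrays this list stood at 7.23 to 7.40. The part of these lists in the comparisons of age and cell type was not tested. The interquartile range of an array ran from 1.96 to 2.69 log2, and the lower quartile from 6.10 to 6.43.

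Among the p53 targets the difference between stem cells and progenitors was carried by 3 genes. Trp53inp1 and Btg2 were higher in HSC than in GMP and Gadd45a was lower, at both ages. The others, Mdm2, Ccng1, Sesn2, Zmat3 and Phlda3, passed the test at neither age. In young mice 2 of the 8 targets were called higher in HSC and 1 lower at a limma adjusted p under 0.05. The background over all genes was 24.6% called, with 13.6% higher and 10.9% lower. In old mice the counts were again 2 higher and 1 lower, against 22.2% of all genes, with 9.25% higher and 13.0% lower. The median difference over the 8 targets was 0.19 log2 in young and 0.15 in old mice, and over all genes it was -0.05 and 0.02. In these bulk samples, fewer cells of a type and less RNA per cell cannot be told apart.

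**Figure D1:**
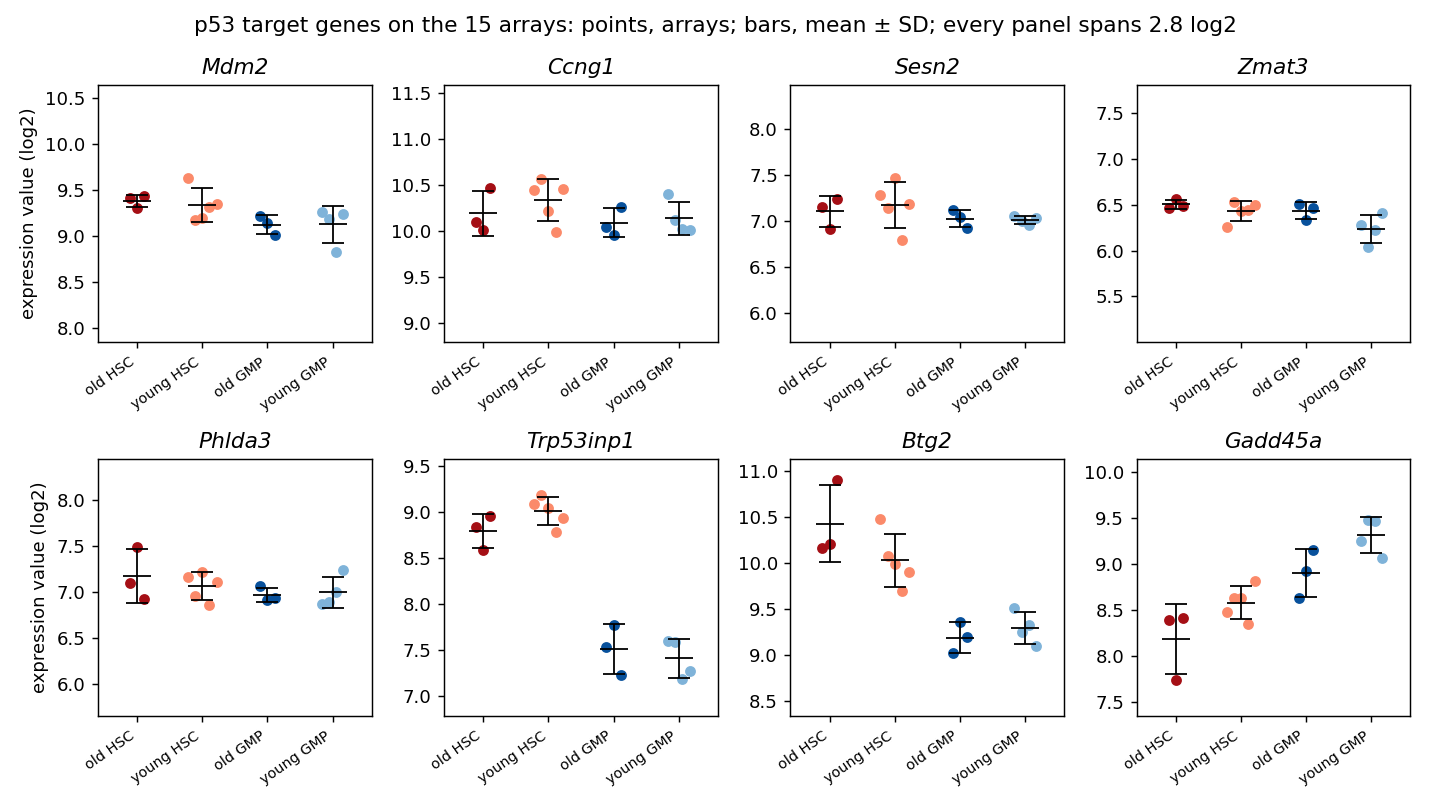
Expression (log2, vertical axis) of the 8 measured p53 targets on each of the 15 arrays, one panel per gene with the same axis length, by group; points are arrays and horizontal lines are group means. Trp53inp1, Btg2 and Gadd45a separate HSC from GMP, while the groups of the other genes lie close together.

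Trp53inp1 encodes a nuclear protein that promotes p53 activity and also takes part in autophagy. Its level was 9.09, 9.18, 9.05, 8.79 and 8.94 log2 on the 5 young HSC arrays and 8.84, 8.59 and 8.96 on the 3 old HSC arrays. On the young GMP arrays it was 7.60, 7.59, 7.19 and 7.27, and on the old GMP arrays 7.53, 7.77 and 7.23. Every HSC array lay above every GMP array. The young HSC mean exceeded the young GMP mean by 1.60 ± 0.13 log2 (SE), or 3.03-fold, with a limma adjusted p of 1.61e-08. In old mice the difference was 1.28 ± 0.16 log2, or 2.43-fold, with an adjusted p of 5.86e-06. It had the widest range of the 8 targets, 1.99 log2 over the 15 arrays. The order of the means was young HSC, old HSC, old GMP and young GMP, and within each cell type the age groups did not differ beyond their spread.

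Btg2 encodes an antiproliferative protein that recruits the mRNA deadenylation machinery, and it is also an immediate-early gene. The old HSC arrays read 10.16, 10.20 and 10.90 log2 and the young HSC arrays 10.47, 10.08, 9.99, 9.70 and 9.90. The old GMP arrays read 9.01, 9.36 and 9.19 and the young GMP arrays 9.51, 9.24, 9.32 and 9.09. HSC and GMP did not overlap at either age. The difference was 0.74 ± 0.16 log2 in young mice (1.67-fold, limma adjusted p = 0.00173) and 1.24 ± 0.20 in old mice (2.36-fold, adjusted p = 9.58e-05). The order of the means was old HSC, young HSC, young GMP and old GMP.

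Other immediate-early genes, a class that cells switch on fast after a stimulus, were also higher in HSC than in GMP. The list of 15 such genes had a mean of 9.60 ± 0.26 log2 for old HSC and 9.68 ± 0.19 for young HSC, with a lowest HSC array at 9.37. For old GMP the mean was 8.53 ± 0.30 and for young GMP 8.85 ± 0.06, with a highest GMP array at 8.91. Of the 15 genes, 11 were called higher in HSC in young mice and 12 in old mice, where 13.6% and 9.25% of all genes were. In young mice 5 of the 15 were called higher without those 7 arrays. That fit leaves 1 array in each young group, and calls over all genes fell in it too. The array with the highest list mean in each HSC group, young HSC replicate 1 and old HSC replicate 3, also had the highest Btg2 of that group. The same held for replicate 2 of old GMP. It was not so in young GMP, where replicate 2 had the highest list mean and replicate 1 the highest Btg2. With age in HSC the list had a median difference of -0.12 log2, of the other sign than Btg2 below. Of its 15 genes, 2 were called higher with age in HSC and 0 lower, where 2.25% and 9.22% of all genes were. Any tie between the level of this list and the Btg2 difference was not tested.

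Gadd45a, a stress sensor that binds PCNA and slows the G2 to M transition, ran the other way. It read 9.24, 9.47, 9.47 and 9.06 log2 on the young GMP arrays and 8.63, 8.92 and 9.15 on the old GMP arrays. It read 8.47, 8.62, 8.63, 8.34 and 8.81 on the young HSC arrays and 8.38, 7.74 and 8.41 on the old HSC arrays. Every HSC array lay below every GMP array of the same age. Across ages, the highest young HSC array (8.81) was above the lowest old GMP array (8.63). HSC were lower than GMP by a difference of -0.74 ± 0.15 log2 in young mice (1.67-fold, limma adjusted p = 8.74e-04) and -0.73 ± 0.18 in old mice (1.65-fold, adjusted p = 0.00601). The means fell in the order young GMP, old GMP, young HSC and old HSC.

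Left with young HSC replicate 1 and young GMP replicate 1 as the only young arrays, limma gave a young difference of 1.49 ± 0.28 log2 for Trp53inp1 (adjusted p = 0.00495). Btg2 stood at 0.96 ± 0.33 (adjusted p = 0.100) and Gadd45a at -0.77 ± 0.33 (adjusted p = 0.208), of the same sign and no longer called. In this fit the single young arrays are assumed to vary like the old groups. With the mean of 3 Y-linked genes as a covariate over all 15 arrays, the young differences were 1.58, 0.71 and -0.76 log2, and all 3 were called.

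The remaining targets cover the feedback arm and the damage response. Mdm2, the ubiquitin ligase that degrades p53, ran from 9.31 to 9.43 log2 in old HSC, 9.17 to 9.63 in young HSC, 9.01 to 9.22 in old GMP and 8.83 to 9.26 in young GMP. Its HSC minus GMP difference was 0.21 log2 in young mice (95% confidence interval -0.04 to 0.45, limma adjusted p = 0.223). In old mice it was 0.26 (-0.03 to 0.56, adjusted p = 0.230), and there all 3 HSC arrays lay above all 3 GMP arrays. Counting Mdm2, 4 of the 8 targets did not overlap between the old cell types, where 34.7% of all genes did not, and 3 of 8 in young mice, where 21.3% did not.

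Ccng1, a cyclin that acts with a phosphatase to dampen p53, ran from 9.96 to 10.56 log2 over the 15 arrays. HSC differed from GMP by 0.20 log2 in young mice (interval -0.08 to 0.48) and 0.10 in old mice (-0.24 to 0.44). Sesn2, a sestrin that restrains the growth kinase complex mTORC1, differed by 0.16 (-0.09 to 0.41) and 0.08 (-0.22 to 0.38). Zmat3, an RNA-binding zinc finger protein, differed by 0.19 (-0.01 to 0.40) and 0.07 (-0.18 to 0.32). Its probe set read below the lower quartile of the array on 2 of 15 arrays. Phlda3, which blocks membrane recruitment of the kinase Akt, differed by 0.06 (-0.19 to 0.32) and 0.20 (-0.11 to 0.52). Adjusted p ran from 0.177 to 0.758 for these 4 genes in young mice and from 0.418 to 0.804 in old mice. These intervals exclude a difference of the size seen for Trp53inp1 but leave room for changes of up to 0.56 log2 among these genes, Mdm2 included. Their ranges over all arrays, 0.52 to 0.81 log2, were below those of Trp53inp1, Btg2 and Gadd45a.

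**Figure D2:**
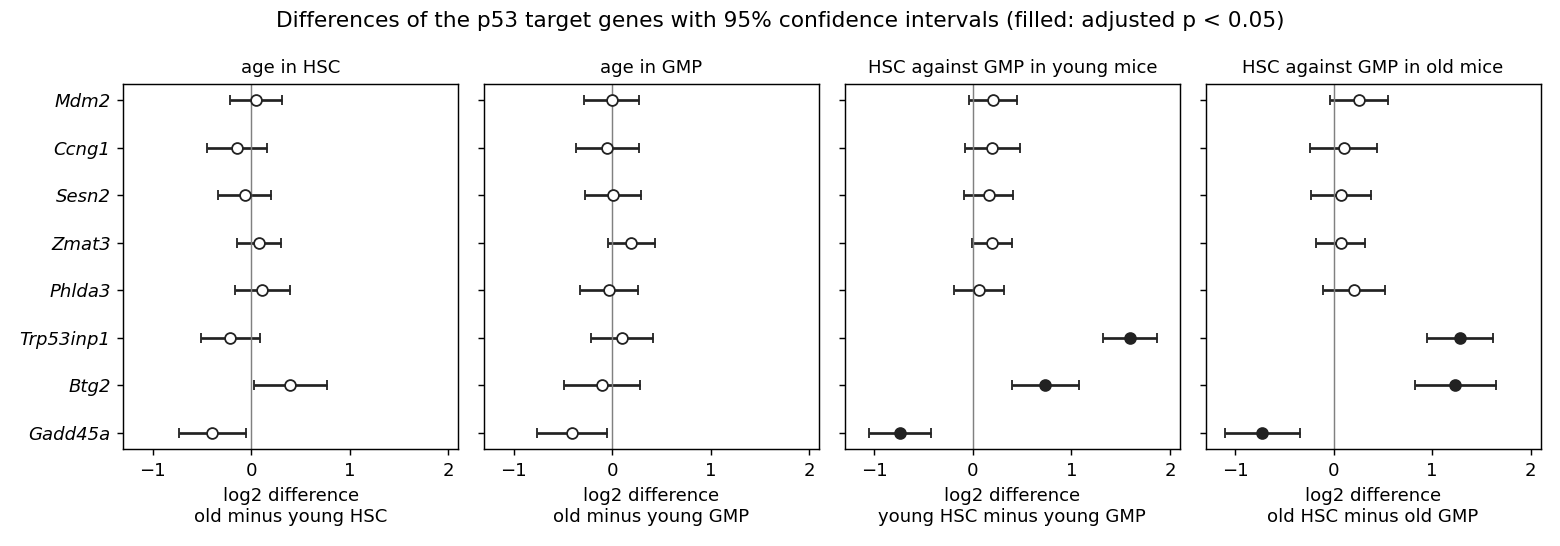
Log2 difference (horizontal axis) of each p53 target in the comparisons of age within HSC, age within GMP and HSC against GMP at each age; points are limma estimates and bars 95% confidence intervals, with filled points for an adjusted p under 0.05. Filled points appear for Trp53inp1, Btg2 and Gadd45a in the panels of HSC against GMP, and no point is filled in the age panels.

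The comparison of old with young HSC asks whether p53 output shifts as stem cells age under the replication stress that the series names. None of the 8 targets was called, while 11.5% of all genes were, 2.25% higher and 9.22% lower. At an unadjusted p under 0.05, 2 of the 8 and 6054 of the 19296 genes passed. None of the 8 had old and young HSC arrays that did not overlap, against 12.8% of all genes. The median difference was -0.01 log2 over the targets and 0.03 over all genes.

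The 2 targets with an unadjusted p under 0.05 pointed in opposite directions. Mean Btg2 over the 3 old HSC arrays was 10.42 ± 0.42 log2 (SD), against 10.03 ± 0.29 over the 5 young ones, a difference of 0.40 ± 0.18 (interval 0.03 to 0.76, limma adjusted p = 0.134). Mean Gadd45a was 8.18 ± 0.38 in old and 8.58 ± 0.18 in young HSC, a difference of -0.40 ± 0.16 (interval -0.74 to -0.06, adjusted p = 0.107). The highest Btg2 and the lowest Gadd45a came from single old arrays, replicates 3 and 2, and the groups overlapped for both genes. With the 7 young arrays left out, Btg2 stood at -0.05 ± 0.27 and Gadd45a at -0.30 ± 0.27 (adjusted p = 0.916 and 0.475). Btg2 was called at 0.69 with quantile normalization and at 0.81 with the interquartile range as covariate. Those fits called 1305 and 105 genes in place of 2213. Without young HSC replicate 4 alone, 5312 genes were called. Gadd45a was among them, at -0.46 (limma adjusted p = 0.0439). Over all fits with 1 array left out it ran from -0.51 to -0.18 (limma adjusted p from 0.0439 to 0.575).

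The other six targets differed by less with age in HSC. Trp53inp1 differed by -0.21 log2 (interval -0.51 to 0.08), Ccng1 by -0.14 (-0.45 to 0.16) and Sesn2 by -0.07 (-0.34 to 0.20). Mdm2 differed by 0.05 (-0.21 to 0.32), Zmat3 by 0.08 (-0.15 to 0.30) and Phlda3 by 0.11 (-0.17 to 0.39). Their limma adjusted p ran from 0.302 to 0.799. When the 7 young arrays were left out, these genes stood between -0.30 and 0.25 log2, with adjusted p from 0.349 to 0.990.

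In GMP, 0 of the 8 targets and 0% of all genes were called with age. At an unadjusted p under 0.05, 1 target and 870 genes passed. That target was Gadd45a, with a mean of 8.90 ± 0.26 log2 over the 3 old GMP arrays and 9.31 ± 0.20 over the 4 young ones, a difference of -0.41 ± 0.17 (interval -0.77 to -0.05, limma adjusted p = 1.00). It stood at -0.34 ± 0.27 without the 7 young arrays. Zmat3 differed by 0.20 ± 0.11 and the other six by -0.10 to 0.10. For 0 of the 8 did old and young GMP arrays not overlap, against 6.83% of all genes.

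Tested directly, the age difference in HSC was not distinguished from that in GMP for any of the 8 targets, where 0.0933% of all genes were called. Btg2 came nearest, at 0.50 ± 0.25 log2 (interval -0.03 to 1.03, limma adjusted p = 0.456). Without the 7 young arrays Btg2 stood at 0.28. For Gadd45a the difference between both age effects was 0.01 ± 0.24 (interval -0.48 to 0.50). After these Gadd45a values had been seen, age was averaged over both cell types in the same model. Gadd45a was then -0.40 ± 0.12 log2 in old against young cells (interval -0.65 to -0.16, adjusted p = 0.0522). None of the 8 was called by this comparison, against 4.99% of all genes. This average takes the HSC and GMP arrays as independent. With arrays of the same age and number as a random block, it was -0.41 ± 0.14 (adjusted p = 0.125). With the number as a fixed block across both ages, 4867 of the 19296 genes were called in place of 962. Gadd45a was among them, at -0.45 (limma adjusted p = 0.00999). Without the 7 young arrays it was -0.32 ± 0.19 (adjusted p = 0.294).

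The relatives of the targets showed which members of each protein family separated the cell types. Family lists held 14 measured relatives, of which 5 were higher and 0 lower in young HSC than in young GMP, where 13.6% of all genes were higher and 10.9% lower. In old mice 4 were higher and 0 lower, where 9.25% and 13.0% of all genes were. The median over the 14 was 0.22 log2 in young and 0.30 in old mice.

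Among the sestrins, Sesn2 was not called while Sesn1 and Sesn3 were. Sesn1 ran from 9.59 to 10.21 log2 in HSC and from 8.63 to 9.05 in GMP, a difference of 1.12 ± 0.14 in young mice and 1.06 ± 0.17 in old mice (limma adjusted p = 4.91e-06 and 1.13e-04). Sesn3, which is known mainly as a target of FoxO factors, ran from 8.41 to 9.48 in HSC and from 7.28 to 7.72 in GMP, a difference of 1.45 ± 0.17 and 1.24 ± 0.21 (adjusted p = 2.24e-06 and 1.85e-04). Without the 7 young arrays the young differences were 0.96 ± 0.31 for Sesn1, no longer called (adjusted p = 0.0788), and 1.91 ± 0.29 for Sesn3, still called. For both genes every HSC array lay above every GMP array.

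In the antiproliferative BTG and TOB family, Tob1 was higher in HSC by 1.29 ± 0.22 log2 in young and 1.01 ± 0.27 in old mice (limma adjusted p = 1.43e-04 and 0.00854). Btg1 was called in young mice, at 0.39 (adjusted p = 0.0456), and stood at 0.37 in old mice (adjusted p = 0.133). The young call was not stable: Btg1 ran from 0.23 to 0.46 with 1 array left out and was 0.06 without the 7 young arrays (adjusted p = 0.927). Tob2 stood at 0.37 and 0.13 and was not called. In the GADD45 family only Gadd45a was called: Gadd45b stood at 0.04 and 0.23 and Gadd45g at 0.07 and 0.37 (adjusted p = 0.0781 in old mice). Phlda2, a relative of Phlda3, was higher by 0.81 ± 0.11 and 0.57 ± 0.14 (adjusted p = 1.48e-05 and 0.00442). Phlda1 stood at -0.07 and 0.38, Trp53inp2 at 0.13 and 0.22, and Mdm4, the partner of Mdm2 that masks p53, at 0.17 and -0.02, with none called.

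Ccng2 was the one relative called with age in HSC. This cyclin, which is usually tied to cell cycle exit, ran from 7.40 to 7.88 log2 in old HSC and from 8.22 to 8.49 in young HSC. The groups did not overlap, and the difference was -0.69 ± 0.15 (limma adjusted p = 0.00899). With age in GMP it was -0.15 ± 0.15, and the test of the difference between both age effects gave -0.54 ± 0.21 (adjusted p = 0.396). Without the 7 young arrays the value in HSC was -0.65 ± 0.21 (adjusted p = 0.106). Ccng1, its paralogue and the p53 target, was at -0.14 ± 0.15 in the same comparison.

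**Figure D3:**
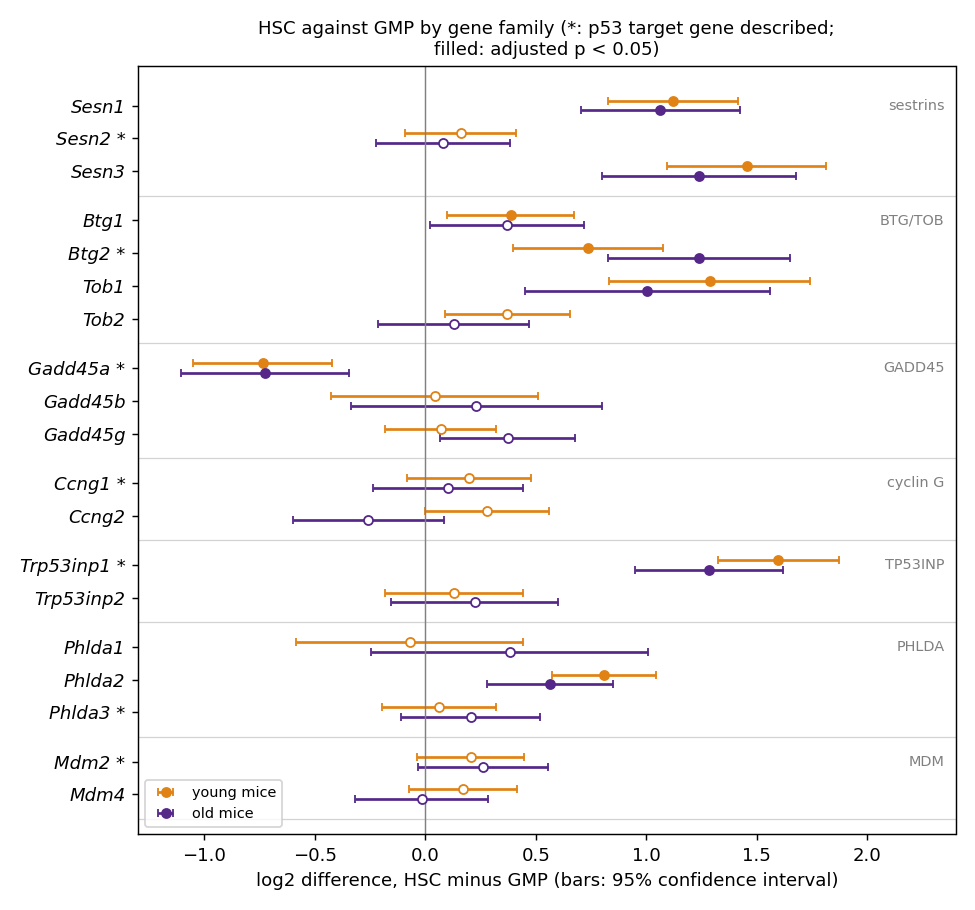
Log2 difference of HSC minus GMP (horizontal axis) in young and old mice for the p53 targets, marked with an asterisk, and their relatives, grouped by family; points are limma estimates, bars 95% confidence intervals, and filled points have an adjusted p under 0.05. Sesn1 and Sesn3 lie right of Sesn2, and Gadd45a is the one gene whose intervals lie wholly below 0 at both ages.

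Of the wider p53 pathway, 56 of 62 listed genes were measured, and Cdkn1a and Bax were not analysed here. In young mice 16 (28.6%) were higher and 9 (16.1%) lower in HSC than in GMP, beside 13.6% and 10.9% of all genes. In old mice 8 (14.3%) were higher and 8 (14.3%) lower, beside 9.25% and 13.0%. The median over the 56 was 0.07 log2 in young and 0.02 in old mice, beside -0.05 and 0.02 over all genes.

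Of 17 regulators, 2 were higher and 1 lower in young HSC, and 1 and 1 in old HSC. Trp53bp1, a damage-response scaffold, was higher by 0.73 ± 0.13 log2 in young and 0.56 ± 0.16 in old mice. Rchy1, a ubiquitin ligase for p53, was higher in young mice by 0.71 ± 0.18. Chek1, the checkpoint kinase downstream of stalled forks, was lower by -0.41 ± 0.13 in young and -1.15 ± 0.15 in old mice (limma adjusted p = 0.0217 and 1.47e-05).

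Of 9 targets tied to arrest, 2 were higher and 1 lower in young HSC, and 2 and 2 in old HSC. Plk2, a polo-like kinase of the G1 and S phases, ran from 8.88 to 9.98 log2 in HSC and from 6.10 to 7.18 in GMP. Its differences were 2.65 ± 0.21 and 2.93 ± 0.25. The lowest old GMP value lay below the lower quartile of every old GMP array, so the size in old mice is uncertain. Pml, the organiser of PML nuclear bodies, was higher by 0.99 ± 0.11 and 0.57 ± 0.13. Gtse1, which carries p53 out of the nucleus, was lower by -0.49 ± 0.11 and -0.43 ± 0.13, and the mitotic protein gene Ckap2 was lower in old mice by -0.89 ± 0.16.

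Of 13 targets tied to apoptosis, 4 were higher and 5 lower in young HSC, and 2 and 3 in old HSC. Trp53i11 was higher by 1.03 ± 0.16 and 0.70 ± 0.20 log2. Apaf1, the apoptosome scaffold, was lower by -0.82 ± 0.12 and -0.67 ± 0.14. Bid, a BH3-only activator of the mitochondrial pathway, was lower by -0.63 ± 0.12 and -0.91 ± 0.14, and Siva1 by -0.51 ± 0.15 and -0.84 ± 0.19. Bbc3, which encodes PUMA, stood at -0.05 and 0.12 and was not called.

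Of 9 targets tied to metabolism, 4 were higher and 1 lower in young HSC, and 2 and 1 in old HSC. Besides Sesn1, the epoxide hydrolase gene Ephx1 was higher in young mice by 1.28 ± 0.17 log2, though its young GMP mean of 5.72 lay below the lower quartile of every array, so the size is uncertain. Ak1 was higher in young mice by 0.41 ± 0.12 and Ddit4, an inhibitor of mTORC1, at both ages, by 0.35 ± 0.11 and 0.43 ± 0.13. Gpx1, a glutathione peroxidase, was lower by -0.42 ± 0.12 and -0.82 ± 0.14.

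Of 6 repair targets, 3 were higher and 0 lower in young HSC, and 0 and 1 in old HSC. Ddb2 and Ercc5, both of nucleotide excision repair, were higher in young mice by 0.59 ± 0.11 and 0.38 ± 0.09 log2, and Mgmt by 0.35 ± 0.10. Xpc, the damage sensor of the same pathway, was lower in old mice by -0.45 ± 0.12. Of the 2 targets linked to HSC quiescence, Ndn was higher by 3.47 ± 0.33 and 3.00 ± 0.41. Its GMP levels of 5.58 to 6.15 were near or below the lower quartile, so these sizes are uncertain too. Gfi1 was lower in young HSC by -0.71 ± 0.11 and stood at -0.33 ± 0.14 in old mice (limma adjusted p = 0.101). When the 7 young arrays were left out, 20 of the 29 calls in young mice among pathway genes and relatives were lost. None of the 20 changed sign, and 12 were at least as large as with all arrays, such as Trp53bp1 at 0.80 and Bid at -0.65. Without the 7 arrays only 1 is left in each young group, and calls over all genes also fell.

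**Figure D4:**
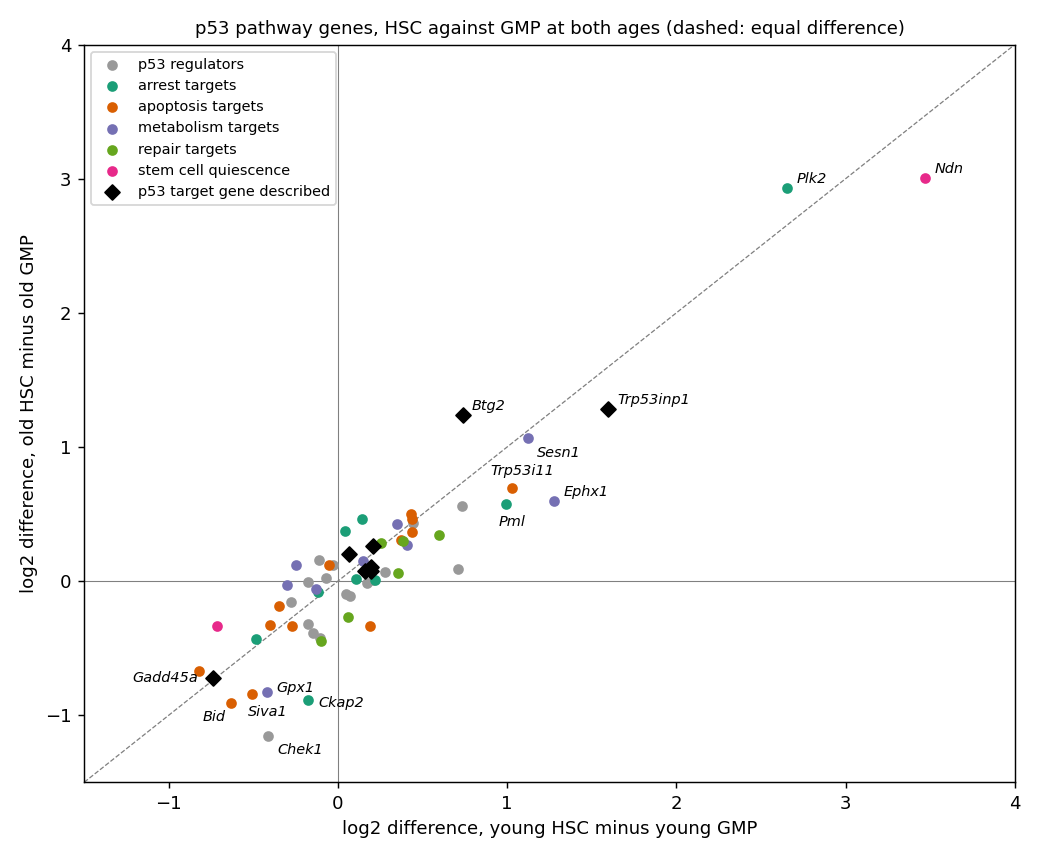
Log2 difference of HSC minus GMP in young mice (horizontal axis) and in old mice (vertical axis) for the 56 other p53 pathway genes, coloured by role, and the 8 targets as diamonds; the dashed line marks equal differences. Plk2 and Ndn lie at the upper right, Trp53inp1 and Btg2 below them, and Gadd45a at the lower left near Bid and Siva1.

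With age in HSC, 1 of the 56 pathway genes was higher and 5 lower, or 1.79% and 8.93%, and 50 were not called. Over all genes the shares were 2.25% and 9.22%, so the pathway stood near the background. Chek1 was lower by the largest amount, -0.77 ± 0.14 log2, running from 7.94 to 8.22 in old HSC and from 8.67 to 8.99 in young HSC (limma adjusted p = 0.00399). The others lower were Ei24 at -0.64 ± 0.18, Siva1 at -0.60 ± 0.17, Gpx1 at -0.44 ± 0.13 and Pml at -0.37 ± 0.12. Ddit4l, a relative of Ddit4, was higher by 0.48 ± 0.15 (adjusted p = 0.0466). Without the 7 young arrays none of these 6 was called, and each kept its sign. Ddit4l stood at 0.84, Ei24 at -0.79 and Pml at -0.39, at least as large as before, and Chek1 at -0.61, Siva1 at -0.55 and Gpx1 at -0.33. With age in GMP and in the difference between both age effects, 0 of the 56 were called by limma. The age comparison in HSC and the comparison of cell types in old mice share the old HSC arrays, and in young mice they share the young HSC arrays.

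Likeness of pattern was measured as Pearson's r across the 15 arrays, which share cell type and array-wide spread, and is given as a description. Trp53inp1 was most like Crebrf (r = 0.987), Crispld1 (0.986) and Gulp1 (0.986). Btg2 was most like Ndfip2 (0.962), Ptger4 (0.959) and Pbx3 (0.949), and Gadd45a most like Nop9 (0.964), Nup37 (0.957) and Pgp (0.953). The targets that did not separate the cell types reached lower values. Mdm2 was nearest to Wdr60 (0.901), Ttbk2 (0.864) and Arid1b (0.861), and Ccng1 to Zfp87 (0.899), Cers2 (0.897) and Mzt1 (0.895). Sesn2 was nearest to Dcaf4 (0.850), Tmcc2 (0.844) and Rarg (0.843), and Phlda3 to Cant1 (0.866), Hrh2 (0.863) and Rnf182 (0.860). Zmat3 was nearest to Rab11fip5 (0.821), Nectin3 (0.789) and Armc3 (0.789).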

How the data were processed

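The deposited table holds log2 expression values, per the range of the values, for 23309 probe sets, and RMA, affy and limma are named without versions per the submitters' processing notes. The authors' genome build, filters and normalization settings are not given in the sources used here. All 15 columns were matched to samples by their labels. Probe sets with 1 gene symbol (20728) were kept, and the brightest represented each of 19296 genes. Group means over the 15 arrays were modelled with limma 3.58.1 in R 4.3.3 and empirical Bayes moderation, with Benjamini-Hochberg adjustment over all genes and a threshold of 0.05. The number of arrays limits the precision. The members and gene lists were chosen with earlier results of these data known. All 8 measured targets are named. Other lists give up to 4 called genes per comparison, the largest first, and up to 2 genes if no gene passed, together with the family relatives, Mdm4 and, per target, the 3 genes of highest correlation; Bbc3 was added after its values were seen. The promoter windows came from RefSeq, GRCm38.p6. Alternatives covered normalization, dim genes, probe sets, covariates, the replicate block and arrays left out. Deviations of same-numbered HSC and GMP arrays correlated at 0.16 to 0.52 over the 4 young pairs and at 0.05 to 0.42 over the 3 old pairs. The labels do not say that equal numbers pair arrays, so the main model used no block at either age.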

Additional observations from a re-analysis of the deposited data

How the results depend on the processing

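Of 111 alternatives of the 6 called values of the targets, 109 stayed called with the same sign. Not all of these could move an estimate. Each target had 1 probe set, so taking the mean of probe sets left its values unchanged. Leaving out young arrays left the old HSC minus GMP estimates unchanged. Without the young arrays with high Xist, an alternative chosen after seeing the data, 1 target was called between young HSC and GMP in place of 3. That fit leaves 1 array in each young group, and calls over all genes fell in it too. Of 881 alternatives of the 42 values not called, 865 stayed so, and 68 of these changed sign. For age in HSC the count was 0 and became 1 with quantile normalization (Btg2 0.69, adjusted p = 0.0119), the interquartile range as covariate (Btg2 0.81, 0.0366), the Y-linked mean as covariate (Gadd45a -0.49, 0.0254), both young arrays numbered 4 left out (Gadd45a -0.46, 0.0336) and the replicate block (Gadd45a -0.41, 0.0490). Over all 19296 genes those settings called, in the same order, 1305, 105, 6588, 6183 and 6280 in place of 2213. Leaving out 1 array gave 0 to 1 targets. The 1 came without young HSC replicate 4 (Gadd45a -0.46, limma adjusted p = 0.0439), where 5312 genes were called. Over all alternatives of age in HSC, Gadd45a ran from -0.51 to -0.10 and Btg2 from -0.05 to 0.81. In old mice quantile normalization gave 5 targets in place of 3, adding Mdm2 (0.49, 0.0309) and Ccng1 (0.39, 0.0197). Calls over all 19296 genes there numbered 4577 in place of 4292. For age averaged over both cell types the count was 0 and became 1 (Gadd45a) with dim genes left out, the Y-linked mean, both arrays numbered 4 left out or the replicate block. Those settings called 1155, 5057, 4737 and 4867 genes in place of 962. With 1 array left out the target count was 0 to 1. It was 1 without old GMP replicate 3, old HSC replicate 3, young GMP replicate 4 or young HSC replicate 4. Over all genes those fits called 1006, 1630, 2073 and 3064. The causes were not tested.

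Over all genes, calls for age in HSC numbered 2213 and ran from 22 (young arrays with high Xist left out) and 105 (interquartile range) to 6588 (Y-linked mean), and from 345 to 5312 with 1 array left out. Quantile normalization gave 1305, of which 57.2% were lower in place of 80.4%. Of the 7 pathway genes and relatives called with age in HSC, 2 (Chek1 and Ccng2) stayed called under it and 0 with the interquartile range as covariate. The replicate block gave 6121 in place of 4741 calls between cell types in young mice and 5392 in place of 4292 in old mice, with 3 targets called in each. For age, where it joins old and young arrays of one number, it gave 6280 in place of 2213 in HSC, 232 in place of 0 in GMP and 4867 in place of 962 for the average. The shares of all genes called with age therefore depend on it. A random replicate block within each age (correlation 0.34), chosen after seeing the data, gave 2387, 0 and 255, and 231 in place of 18 for the difference between both age effects, with 0 targets called in each.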

Other observations

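The list of immediate-early genes, the class to which Btg2 also belongs, held some of the wider differences between the cell types. Nr4a1, an orphan nuclear receptor, was higher in HSC by 2.76 ± 0.17 log2 in young and 2.83 ± 0.20 in old mice (limma adjusted p = 2.25e-10 and 5.06e-09). Egr1, a zinc finger factor, was higher by 2.31 ± 0.20 and 2.77 ± 0.24. Fosb, a component of AP-1, was higher by 0.93 ± 0.19 and 1.73 ± 0.23. With age in HSC 2 of the 15 were called, both higher, where 2.25% of all genes were: Egr2 by 0.77 ± 0.23 (adjusted p = 0.0348) and Egr3 by 0.39 ± 0.12 (adjusted p = 0.0416), with overlapping groups for each. Without the 7 young arrays with high Xist, 0 of the 15 were called with age in HSC, and Egr2 stood at 0.47 ± 0.40 and Egr3 at 0.22 ± 0.18.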
